A study of Mus musculus with 8 samples.

Results

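The region described here is a stretch of 1300 kb on mouse chromosome 4, chr4:58500000-59799999 in mm10. It runs from the 5′ part of Lpar1, a gene on the minus strand, past Ptgr1 and Ptbp3 to Inip. It holds 260 of the 30659 positions, spaced 5 kb apart, that had a replication timing score in every profile, and none of its positions lacked a score. The region was selected on higher scores in both deletion profiles than in control, so the genotype differences below describe the choice and are given with no test of it. Its first position lies 2968 kb above the higher-coordinate end of Klf4.

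Repli-seq was the assay and mouse embryonic stem cells the material: newly made DNA is labelled with the nucleotide analog BrdU and sequenced from cells sorted into early and late S phase. Control cells were JM8N4 cells with no listed change, and the other group carried a deletion of a Klf4 enhancer. Labelling lasted 2 h and 40000 cells entered each fraction. The 8 libraries, 1 early and 1 late for each profile, gave 4 profiles, 2 per genotype, named control 1 and 2 and deletion 1 and 2 after their replicate number. Whether the deletion cells are 1 clone, whether 1 or both alleles lack the enhancer and where the deletion lies are not given in the sources used here. No label says that replicates came from separate cultures, so their spread may be technical, and scores hold no expression levels by which the labelled cell type could be checked. Read counts are not part of the table, and the depth of each score is therefore unknown. Pairs of values below give replicate number 1 first.

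Mammalian chromosomes are copied in large domains, each with its own time in S phase. Domains rich in active genes and CpG-dense promoters are usually copied early, and gene-poor domains at the nuclear lamina late, with slopes of gradual change between them. Klf4 encodes a transcription factor of naive pluripotency, and its enhancers act in embryonic stem cells. Higher scores were read as earlier replication, because 81.3% of 1301 midpoints of protein-coding genes but only 45.7% of positions had a mean score above 0.

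The region held 14 protein-coding genes, 10.8 per Mb against 8.49 per Mb over the measured chromosome, with 3 long noncoding RNA genes and 3 pseudogenes. A RefSeq promoter table of GRCm38.p6, the same build, held 11 of the 14. Over the 250 bases before the gene start, these had a median of 18 CpG dinucleotides, against 12 for the protein-coding promoters of the chromosome, and ranged from 1 at Olfr267 to 43 at Ugcg. Promoters are printed below for 4 genes, 5′ to 3′ on the gene's strand and with each CpG in capitals: Ptgr1 (chr4:58987079-58987328, minus strand), which gives the region its name, Susd1 (chr4:59438634-59438883, minus strand) and Lpar1 (chr4:58553492-58553741, minus strand), which had the highest and lowest difference between genotypes among these 11 genes, and Ugcg (chr4:59189300-59189549, plus strand), the richest in CpG.
Ptgr1: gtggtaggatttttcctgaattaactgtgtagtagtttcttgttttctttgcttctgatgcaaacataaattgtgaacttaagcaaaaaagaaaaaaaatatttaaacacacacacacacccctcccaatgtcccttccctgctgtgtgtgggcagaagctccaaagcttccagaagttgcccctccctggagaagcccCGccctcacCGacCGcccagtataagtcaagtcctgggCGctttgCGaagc
Susd1: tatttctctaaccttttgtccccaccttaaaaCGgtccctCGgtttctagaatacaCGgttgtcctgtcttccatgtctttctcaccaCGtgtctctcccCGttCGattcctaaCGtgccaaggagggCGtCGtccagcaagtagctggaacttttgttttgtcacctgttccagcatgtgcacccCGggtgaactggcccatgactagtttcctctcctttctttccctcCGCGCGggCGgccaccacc
Lpar1: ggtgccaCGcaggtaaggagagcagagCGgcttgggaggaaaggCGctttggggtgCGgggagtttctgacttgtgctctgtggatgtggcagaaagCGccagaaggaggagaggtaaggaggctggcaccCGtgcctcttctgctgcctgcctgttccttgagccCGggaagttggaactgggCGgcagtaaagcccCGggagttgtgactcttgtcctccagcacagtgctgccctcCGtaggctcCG
Ugcg: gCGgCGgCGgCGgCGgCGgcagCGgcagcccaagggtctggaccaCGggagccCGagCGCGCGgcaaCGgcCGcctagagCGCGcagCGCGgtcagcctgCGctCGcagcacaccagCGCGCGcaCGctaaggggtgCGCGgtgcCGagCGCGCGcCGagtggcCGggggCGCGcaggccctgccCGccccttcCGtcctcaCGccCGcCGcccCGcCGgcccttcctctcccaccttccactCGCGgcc

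The Ptgr1 promoter held 5 CpG, those of Lpar1 and Susd1 held 11 and 14, and the long run of CpG at Ugcg stands apart from all 3. The core of KLF family sites, GGGNGTG, searched on both strands, occurred in the promoters of Ptgr1, Dnajc25 and Ugcg, each time on the reverse strand. These 3 of 11 (27.3%) compare with 31.8% of the protein-coding promoters of the chromosome and 28.4% of all those in the table. A match of these letters is a description of the sequence and no evidence of binding.

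Over the whole region the timing score averaged 0.76 in control 1, 1.03 in control 2, 1.16 in deletion 1 and 1.70 in deletion 2. Both deletion profiles lay above both controls, but deletion 1 was only 0.13 above control 2, less than the distance between the controls. The group means were 0.90 ± 0.19 and 1.43 ± 0.38 (SD, n = 2 each), a difference of 0.54 (SE 0.30). It was 0.40 within number 1 and 0.68 within number 2. The median difference of the chromosome was 0.16 in the mean, 0.08 within number 1 and 0.22 within number 2, and after its subtraction the region was higher by 0.38, 0.32 and 0.45 in that order. The size of the difference depended on single profiles, at 0.27 without deletion 2 and 0.81 without deletion 1, and such values mix genotype with replicate number.

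**Figure D1:**
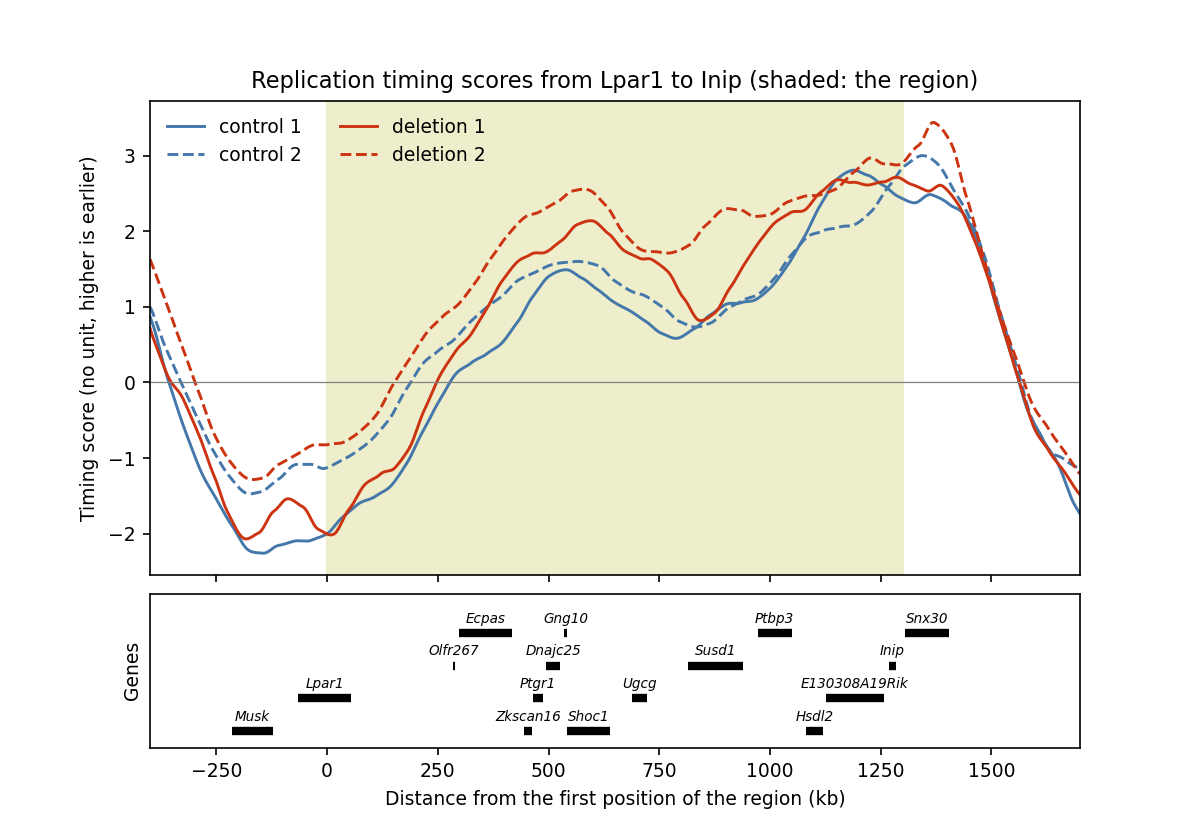
Unitless timing score on the vertical axis, with earlier replication upward, against distance from the first position of the region in kb for the 4 profiles, with protein-coding genes as black bars below and the region shaded. Between Zkscan16 and Ugcg both deletion profiles run above both controls, and at the ends of the region the genotypes overlap.

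The profile of the region had the same shape in all 4 columns. Along the chromosome, scores climbed out of a late valley at Lpar1, reached a first maximum near Gng10 and Shoc1, sank to a shallow dip over the gap between Ugcg and Susd1 or over Susd1, and climbed again to an early plateau at E130308A19Rik and Inip. Each profile passed 0 once on the first climb. The crossing lay 277 kb from the first position in control 1, 189 kb in control 2, 247 kb in deletion 1 and 152 kb in deletion 2. Deletion profiles crossed nearer the lower end than control, by -30.1 kb within number 1 and -36.6 kb within number 2. Number 2 minus number 1 was -88.6 kb in control and -95.1 kb in the deletion profiles, so the replicate numbers were farther apart there than the genotypes. Without control 1 or without deletion 2 the genotype shift of the crossing changed sign, but such values mix genotype with replicate number.

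The first maximum was 1.49 and 1.60 in the controls, at 59040000 and 59065000, and 2.14 and 2.56 in the deletion profiles, at 59095000 and 59080000. Its height separated the genotypes. The second maximum did not, at 2.81 in both controls and at 2.72 and 2.97 in the deletion profiles. Within the region the second maximum exceeded the first by 1.32 and 1.21 in control and by 0.58 and 0.41 in the deletion profiles. The 2 maxima were thus more alike in both deletion profiles, but the heights in control 2 and deletion 2 depend on the upper limit. The depth of the dip below the first maximum did not separate the genotypes, at 0.91 and 0.87 in the controls and 1.32 and 0.85 in the deletion profiles. The dip itself was at 0.58, 0.73 and 0.82 in control 1, control 2 and deletion 1, and at 1.71 in deletion 2, which stood apart from the other 3.

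Position by position, the mean difference ranged from 0.07, at 58525000, to 0.91, at 59100000, with a median of 0.60. It was above 0 at all 260 positions and above the median difference of the chromosome at 247 (95.0%). At 59100000 the scores were 1.28 and 1.57 in the controls and 2.14 and 2.52 in the deletion profiles. Within number 2 the difference was above its own chromosome median at 256 positions. Within number 1 this held at 210, and the other 50 formed 3 stretches. They ran from 58500000 to 58564999 over the 5′ part of Lpar1, from 59340000 to 59394999 inside Susd1 and from 59635000 to 59764999 over E130308A19Rik. In the stretch inside Susd1, at 59360000, control 1 and deletion 1 scored 0.87 and 0.85, while control 2 and deletion 2 scored 0.77 and 2.10. There the difference between genotypes came from deletion 2 alone.

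**Figure D2:**
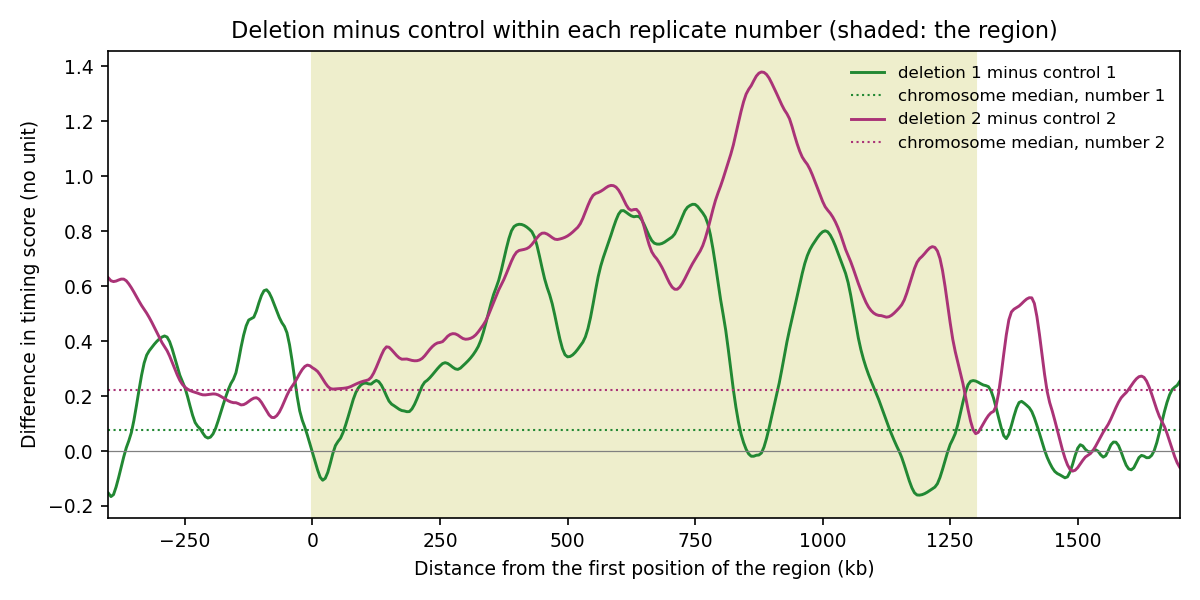
Difference in timing score, deletion minus control (vertical axis, no unit), within replicate number 1 and within number 2 against distance from the first position of the region in kb. Dotted lines mark the chromosome medians of 0.08 and 0.22, and the region is shaded. Both lines stand well above their medians over the middle of the region, and they part inside Susd1, where number 1 is near 0 and number 2 reaches 1.38.

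Both deletion profiles lay above both controls at 155 of the 260 positions (59.6%), against 16.0% of the positions of the chromosome. Without deletion 1 the share was 95.4%, but leaving out a profile can only keep or raise it. The chromosome's share without deletion 1 is not given. Because the region was picked for higher deletion scores, nothing is read from the excess. With each profile's own median subtracted the count was 154 (59.2%, against 17.4% of the chromosome), and 132 positions were counted under both settings. As deposited they formed 3 unbroken runs, of 490 kb from 58865000 to 59354999, of 250 kb from 59385000 to 59634999 and of 35 kb from 59750000 to 59784999. By length the first was rank 6 among the 226 such runs of the chromosome. Over it the scores averaged 0.96 and 1.26 in the controls and 1.62 and 2.08 in the deletion profiles, a difference of 0.74, or 0.58 beyond the chromosome median. With the medians subtracted the first run reached further down the slope, from 58755000 to 59344999, and had rank 3 of 257. The second then ended earlier, at 59574999, and the third was gone.

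The limma fit over all 30659 positions called none of the 260 at an adjusted p under 0.05 and 0% of the chromosome. At an unadjusted p under 0.05 it had 24 of the 260 positions in the region and 299 of the 30659 on the chromosome. The region was chosen on this contrast and neighbouring positions share smoothed scores, so nothing is read from these counts. That fit takes the distance between replicate numbers as spread, so a lack of calls does not show that the genotypes were alike.

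Segment by segment, the difference was concentrated in the middle. From the lower end to the start of Ecpas it was 0.25, or 0.09 beyond the chromosome median, and the genotypes overlapped at every one of the 60 positions. From Ecpas to Gng10 it was 0.61. From Shoc1 to Ugcg it was 0.79, with scores of 1.15 and 1.42 in the controls and 1.92 and 2.24 in the deletion profiles, and both deletion profiles were above both controls at all 37 positions. From Susd1 to Ptbp3 it was 0.76, with 0.40 within number 1 and 1.12 within number 2. From Hsdl2 to the upper end it was 0.28, with 0.04 within number 1, below that number's chromosome median, and 0.52 within number 2. These last segments thus rested mostly on number 2.

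The segments also differed in how far apart the replicate numbers stood. Number 2 exceeded number 1 by 0.87 on the slope below Ecpas, by 0.49 from Ecpas to Gng10, by 0.29 from Shoc1 to Ugcg and by 0.37 from Susd1 to Ptbp3, while from Hsdl2 to the upper end it was 0.12 lower (-0.12). On the slope the genotypes therefore differed less than the replicate numbers did, and from Shoc1 to Ugcg more. The genotype difference was larger in size than the number difference at 172 of 260 positions (66.2%), against 26.3% of the positions of the chromosome, a share that the choice of the region also touches. The 2 within-number differences had a Pearson correlation of 0.28 across the 260 positions, which share libraries and smoothed scores and are no replicates.

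**Figure D3:**
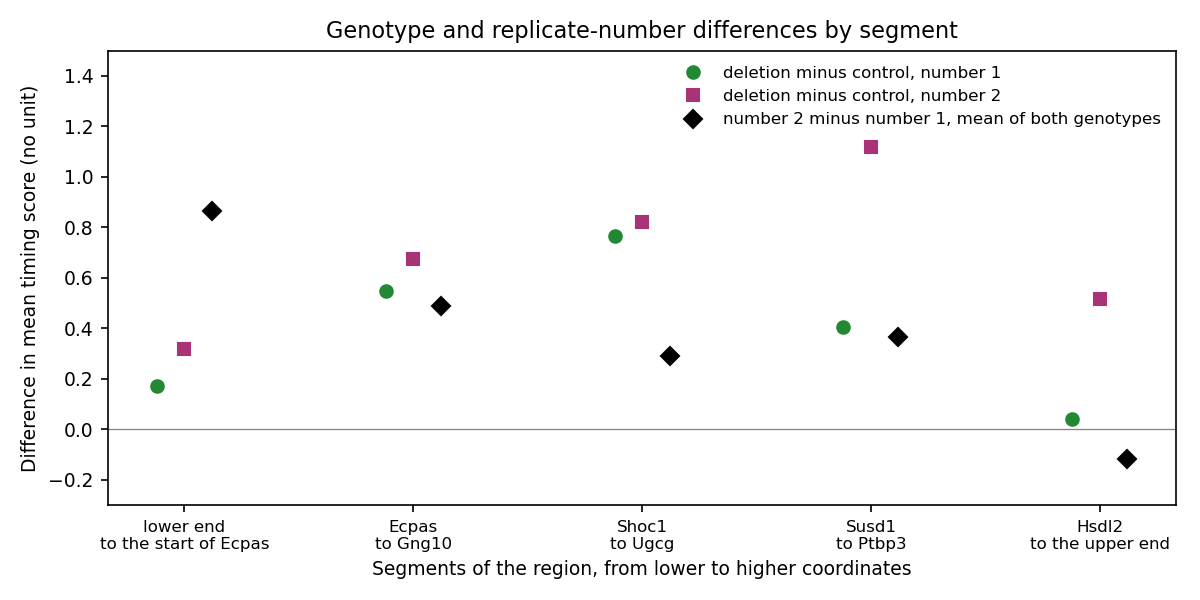
Differences in mean timing score (vertical axis, no unit) for 5 segments of the region: deletion minus control within number 1 (circles) and number 2 (squares), and number 2 minus number 1 averaged over genotypes (diamonds). The diamond lies above both other marks only in the segment below Ecpas, at 0.87, the within-number differences are close to each other from Shoc1 to Ugcg, at 0.76 and 0.82, and far apart from Susd1 to Ptbp3, at 0.40 and 1.12.

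Of the 14 protein-coding genes, 10 had both deletion profiles above both controls (71.4%), against 15.1% of the 1301 measured genes of the chromosome. Gene scores average every position with a bin on the gene, so neighbours share smoothed values and the 14 are not independent. Their median difference was 0.61, against 0.14 over all measured genes. With each profile's median subtracted the count was again 10 (against 17.8% of the chromosome's genes), but only 8 genes were the same: Zkscan16, Ptgr1, Dnajc25, Gng10, Shoc1, Ugcg, Susd1 and Ptbp3. Hsdl2 and Inip were separated only as deposited, and Olfr267 and Ecpas only after subtraction. The size of the difference moved by over 1.5 times, or changed sign, in 10 of the 14 genes when some single profile was left out, and not in Shoc1, Ugcg, Ptbp3 and Hsdl2. Such values again mix genotype with replicate number.

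Of the 5 genes of lipid metabolism and signalling, 4 were separated as deposited, against 15.1% of the measured genes of the chromosome. The region was picked on this contrast, so nothing is read from such counts by gene group. Ptgr1 encodes prostaglandin reductase, which inactivates leukotriene B4 and reduces prostaglandin metabolites, and lies at chr4:58965590-58987131. Its score was 1.22 and 1.47 in the controls and 1.71 and 2.25 in the deletion profiles. The genotypes were apart by 0.24 at their closest, similar to the distance between the controls. The means were 1.35 ± 0.18 and 1.98 ± 0.38 (SD, n = 2 each), a difference of 0.63, with 0.49 within number 1 and 0.77 within number 2, or 0.41 and 0.55 beyond the chromosome medians. Without deletion 2 it was 0.36.

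Ugcg encodes ceramide glucosyltransferase, which makes glucosylceramide, the base of most glycosphingolipids, and lies at chr4:59189507-59222833. It scored 0.88 and 1.18 in the controls and 1.66 and 1.79 in the deletion profiles. The deletion profiles were close together and 0.48 above the higher control. The difference was 0.70, and unlike at most genes of the region it was larger within number 1, at 0.78, than within number 2, at 0.62.

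Gng10, at chr4:59035156-59041899, encodes a gamma subunit of heterotrimeric G proteins. It scored 1.49 and 1.59 in the controls and 1.92 and 2.47 in the deletion profiles, with a difference of 0.66, which was 0.38 without deletion 2. Hsdl2, at chr4:59581517-59618694, encodes a peroxisomal dehydrogenase-like protein, and scored 2.16 and 1.96 in the controls and 2.41 and 2.47 in the deletion profiles. Its genotypes were separated by 0.25 as deposited and overlapped after each profile's median was subtracted.

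Lpar1, a receptor for lysophosphatidic acid, extends below the region at chr4:58435252-58554027 and was the one late gene. It scored -1.97 and -1.08 in the controls and -1.85 and -0.83 in the deletion profiles. The replicate numbers were apart by 0.95 and the genotypes by 0.19, the lowest difference among the 14 genes. It equals 0.03 beyond the chromosome median, and it was 0.12 within number 1 and 0.25 within number 2. Leaving out a profile mixes genotype with replicate number. It gave -0.32 without deletion 2, -0.26 without control 1, 0.63 without control 2 and 0.70 without deletion 1.

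The 2 genes of protein handling lie on the upper part of the first climb. Ecpas, at chr4:58797234-58917748, encodes an adaptor of the proteasome. It scored 0.37 and 0.95 in the controls and 0.95 and 1.51 in the deletion profiles, so that deletion 1 and control 2 were level. Its differences within the numbers were nearly equal, at 0.57 and 0.55. Its mean difference of 0.56 was 0.27 without control 1, 0.85 without control 2 and 0.28 without deletion 2. Dnajc25, at chr4:58994799-59025573, encodes a J-domain cochaperone, and scored 1.42 and 1.55 in the controls and 1.78 and 2.35 in the deletion profiles, a difference of 0.58, which was 0.29 without deletion 2.

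All 4 genes of the nucleus and of RNA were separated as deposited, against 15.1% of the measured genes of the chromosome. Inip was not separated after each profile's median was subtracted, and nothing is read from the count. Shoc1, which acts in meiotic crossover formation, lies at chr4:59041984-59138983 under the first maximum and had the highest difference of the 14 genes. It scored 1.32 and 1.56 in the controls and 2.07 and 2.49 in the deletion profiles. The lower deletion profile was 0.51 above the higher control. The difference was 0.84 (SE 0.24), with 0.74 within number 1 and 0.93 within number 2.

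Ptbp3, at chr4:59471868-59549378, encodes an RNA-binding protein of the polypyrimidine tract binding family that acts in splicing. It scored 1.32 and 1.38 in the controls and 2.06 and 2.27 in the deletion profiles. The distance of 0.68 between the genotypes at their closest was the widest of the 14 genes, beside SDs of 0.05 in the controls and 0.15 in the deletion profiles (n = 2 each). The difference was 0.82 (SE 0.11), with 0.75 and 0.89 within the numbers, or 0.67 in both beyond the chromosome medians.

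Zkscan16, at chr4:58943568-58962624, encodes a zinc finger protein. It scored 0.997 and 1.41 in the controls and 1.67 and 2.19 in the deletion profiles, a difference of 0.73, which was 0.46 without deletion 2. Inip, at chr4:59769637-59783885, encodes a subunit of a single-stranded DNA binding complex that acts in DNA repair. It scored 2.53 and 2.63 in the controls and 2.69 and 2.89 in the deletion profiles, and its difference of 0.21 was 0.05 beyond the chromosome median and 0.11 without deletion 2.

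Of the other 3 genes, Susd1 was the only one separated as deposited. It encodes a sushi domain protein and lies at chr4:59314202-59439869 across the dip. It scored 0.89 and 0.86 in the controls but 1.05 and 2.12 in the deletion profiles. The deletion profiles were thus far apart, and the difference of 0.71 came from 0.15 within number 1 and 1.26 within number 2. It was 0.17 without deletion 2 and 1.24 without deletion 1.

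Olfr267, an olfactory receptor gene at chr4:58784779-58785720, scored 0.05 and 0.55 in the controls and 0.35 and 0.97 in the deletion profiles. Its difference was 0.36, with 0.30 within number 1 and 0.42 within number 2. It was 0.11 without control 1, 0.61 without control 2, 0.67 without deletion 1 and 0.05 without deletion 2. E130308A19Rik, at chr4:59626116-59757649, scored 2.70 and 2.15 in the controls and 2.64 and 2.76 in the deletion profiles. It was the one gene of the 14 with a lower score in deletion than in control cells within number 1, by -0.06, and within number 2 the difference was 0.61. Its mean difference of 0.27 was 0.55 without control 1 and -0.0016 without control 2. It was also the only one not above both chromosome medians, which 13 of the 14 genes exceeded within each number, against 330 of the 1301 measured genes.

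**Figure D4:**
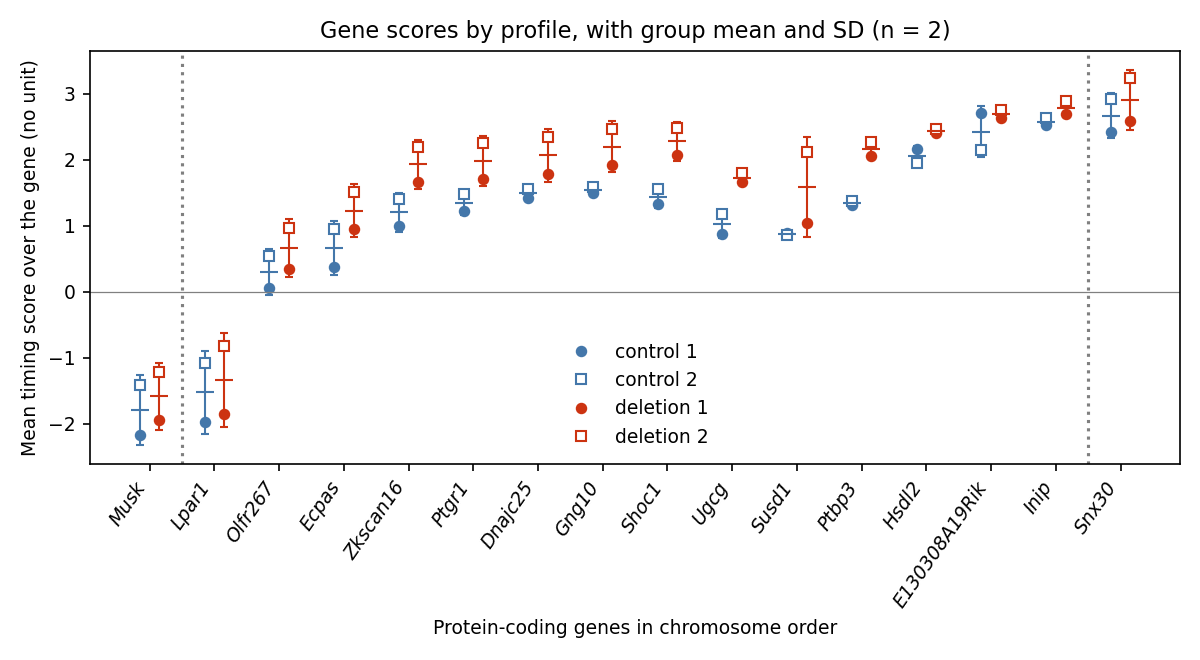
Mean timing score over each gene (vertical axis, no unit) for the 14 protein-coding genes of the region in chromosome order, and for the nearest gene outside each end beyond the dotted lines. Circles are number 1, open squares number 2, and lines give the group mean and SD (n = 2). Control and deletion marks are fully apart from Zkscan16 to Hsdl2 and at Inip, and overlap at Lpar1, Olfr267, Ecpas and E130308A19Rik.

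The gap of 231 kb from Lpar1 to Olfr267, with the pseudogene Gm12579, fell on the late slope, where Gm12579 scored -1.50 and -0.70 in the controls and -1.26 and -0.44 in the deletion profiles. Between Shoc1 and Ugcg the pseudogene Rpsa-ps11 had a difference of 0.77. Between Ugcg and Susd1 the long noncoding RNA genes Gm12596 and Gm35578 had differences of 0.81 and 0.81. All 3 of these were separated, by 0.50 to 0.53 at the closest.

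Right at both limits the difference was close to the chromosome median of 0.16. At the last position outside the lower end, 58495000, it was 0.17, and at the first inside, 58500000, 0.15. At the last position inside the upper end, 59795000, it was 0.17, and at the first outside, 59800000, 0.16. Farther out it was higher again on both sides, at 0.37 at 58400000 and 0.34 at 59880000, so the limits lay at low points of the difference and not at the start of an even background. Musk, the receptor kinase of the neuromuscular junction and the nearest gene below, scored -2.17 and -1.41 in the controls and -1.95 and -1.22 in the deletion profiles. Snx30, a sorting nexin gene and the nearest above, scored 2.43 and 2.91 in the controls and 2.59 and 3.23 in the deletion profiles. Both overlapped between genotypes, with differences of 0.20 and 0.24.

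The flanks of equal length on each side had smaller mean differences, but single positions in the upper flank had mean differences as high as any in the region. The lower flank averaged 1.33 ± 0.35 in the controls and 1.66 ± 0.44 in the deletion profiles (SD, n = 2 each), a difference of 0.33, with 20.8% of its positions separated. Its highest difference was 0.82, at 57405000, from 0.46 within number 1 and 1.18 within number 2. The upper flank averaged -1.27 ± 0.38 and -1.05 ± 0.30, a difference of 0.22, with 0% of its positions separated. Its highest difference, 0.95 at 60935000, exceeded the highest of the region, and the scores there were -3.38 and -1.82 in the controls and -2.06 and -1.23 in the deletion profiles, which overlap. Windows of 1300 kb were laid along the chromosome from the region's own limits, 118 in all. Among them the region had the highest mean difference and the highest within number 1, and rank 5 within number 2. The region was chosen on this contrast and its limits lay at low points of the difference, so nothing is read from these ranks. The region's control score had rank 42.

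Where the control mean lay above -1, median differences at like timing were lower over the whole chromosome, the region's positions included, than in the region. Where the control mean lay between 1 and 2, the region's 96 positions had a median difference of 0.77 and the chromosome's 2482 positions 0.22. Between 0 and 1 the medians were 0.67 and 0.18, at 73 and 2232 positions. Between -1 and 0 they were 0.27 and 0.08, and above 2 they were 0.27 and 0.13. Below -1 they were 0.16 and 0.17, so the region was not higher there. These values describe the contrast that chose the region and were not tested.

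A pair of other stretches of the chromosome with higher deletion scores differed in how far their profiles were separated. The 83 positions over Bnc2 scored 0.42 and 1.11 in the controls and 1.08 and 2.01 in the deletion profiles, a difference of 0.78 with 41.0% of positions separated. The 18 positions from Rnf11 to Ttc39a scored 2.15 and 2.11 in the controls and 2.75 and 2.97 in the deletion profiles, a difference of 0.73 with 100% separated. Both stretches were taken for higher deletion scores, so their differences and shares describe that choice. Their mean differences exceeded the 0.54 of the whole region, but not the 0.79 from Shoc1 to Ugcg, the segment with the region's highest difference. Differences between these stretches were not tested.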

How the data were processed

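Repli-seq profiles of chromosome 4 were analysed in 2 control and 2 Klf4 enhancer deletion profiles, each from 1 early and 1 late library, grouped by the labels and matched by column name. The deposited values are timing scores, marked as normalized by interquartile range in the table's own name, and the 4 columns had the same interquartile range, 4.60. Log base, smoothing and the edge of the bin that a position marks are not given in the sources used here, and a position was taken as the bin's start. The tools Bowtie2, SAMtools and bedtools and the build mm10 come from the submitters' processing notes. Depth is unknown.

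Of 31301 positions, 30659 had all 4 scores. Each difference is deletion minus control, and the SE is that of the difference between the 2 means. A separated position or gene has both deletion profiles above both controls. Over all positions limma 3.58.1 (lmFit, eBayes) in R 4.3.3 was run two-sided with Benjamini-Hochberg adjustment at 0.05. It was also run on simulated data, with separate noise at each position and a shift larger than any mean difference of the region. That run does not show how the fit performs on smoothed scores with smaller differences. The plan had assumed log ratios, and the same fit was run on scores. Genes and promoters came from RefSeq tables of GRCm38.p6, with the first listed start where a gene has several. The named genes are all protein-coding genes that overlap the region and the nearest 1 beyond each end, with up to 4 others in the widest gaps. The Susd1 and Ugcg promoters were added after their values were seen. The region, gene groups and lists were chosen with earlier results of these data known. Alternatives were other centring and scaling, the bin edge, gene starts, limits moved by 100 kb, 50 kb means, limma's trend and robust options, leaving out each profile and the replicate number as a block.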

Additional observations from a re-analysis of the deposited data

How the results depend on the processing

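With 2 profiles per genotype and unknown depth, single profiles weigh heavily. Leaving out a profile also mixes genotype with replicate number. It moved the region's mean difference between 0.27 and 0.81. The separated share of positions was 60.8% to 95.4%, but leaving out a profile can only keep or raise that share. The chromosome's shares without a profile are not given, so nothing is read from this range. The genotype shift of the crossing of 0 moved between -80.9 kb and 14.2 kb, which includes a change of sign. Within the numbers it was -30.1 kb and -36.6 kb, with the same sign in both. That shift was -33.3 kb with all profiles and -13.9 kb against each profile's own median. The mean difference was 0.43 with each profile's median subtracted, 0.36 after quantile normalization, and 0.50 or 0.60 with the limits widened or narrowed by 100 kb. Of 140 recomputed gene differences, 3 changed sign: Lpar1 gave -0.26 without control 1 and -0.32 without deletion 2, and E130308A19Rik gave -0.0016 without control 2, while their highest values were 0.70 and 0.55, without deletion 1 and without control 1. A further 10 moved beyond the spread between replicates, at Ptbp3, Hsdl2, Inip and Ugcg, under centring or scaling, and kept their sign. Not all of the 140 could differ, since the replicate number as a block leaves a gene's mean difference unchanged. Leaving out a profile can turn a sign but cannot move a difference beyond that spread, because of how the spread was computed. By the other measure, a move of over 1.5 times or a change of sign, 10 of the 14 genes depended on some single profile. Scaling by the interquartile range nearly repeated the subtraction of medians, so the genes moved by it are counted again. The labels do not state that replicate numbers pair the profiles. The deviations of control 1 and deletion 1 from their group means correlated at 0.64. With the replicate number as a block, limma called 69 of the region's positions earlier (26.5%, against 2.09% of the chromosome), and 30 with each profile's median subtracted as well (11.5% against 1.32%), a setting chosen after seeing the data. No other setting of that fit called a position of the region. The choice of the region used the same contrast, so these calls are no independent support.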
